A study of Bos taurus with 12 samples.

Results

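The genes described here are the 7 that make, hold back, carry and cut the sterol regulatory element-binding proteins (SREBPs): SREBF1, SREBF2, SCAP, INSIG1, INSIG2, MBTPS1 and MBTPS2. They were chosen by symbol, and their probes were the non-control probes of the array whose RefSeq transcript maps to one of these symbols. Of 43653 non-control probes, 14 belonged to 6 of the 7 genes, and 11 of the 14 were bright enough to be tested. No probe matched a RefSeq transcript of INSIG2, which was not analysed here.

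Gene expression was measured in mammary gland biopsies of multiparous, midlactation Holstein cows on one-color Agilent bovine arrays, 1 array per biopsy. The 6 cows named by the labels were each sampled in both periods: CONT, on day 0, while a lactation diet was available ad libitum, and REST, on day 6 of a feed allowance that met 50% of the requirement in net energy for lactation. The biopsies were taken at the rear of the udder, on alternate sides. Every cow went from CONT to REST and none was kept on full feed, so feed restriction, stage of lactation and the second biopsy cannot be told apart. The series description counts 5 cows against the 6 of the labels, and per the study's methods a Holstein cow was dropped because it had mastitis. The labels do not say which cow this was, so it may be among the 6 used here, and the fits were repeated without each of them.

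SREBPs are transcription factors that are made as precursors in the membrane of the endoplasmic reticulum. SCAP escorts them to the Golgi, where a pair of proteases, encoded by MBTPS1 and MBTPS2, releases the part that enters the nucleus and activates genes of cholesterol and fatty acid synthesis, while the INSIG proteins retain SCAP in the endoplasmic reticulum when sterols are plentiful. INSIG1 is itself a target gene of SREBP, and in the lactating gland the pathway is known for its part in the synthesis of milk fat.

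INSIG1 had the largest change of the 6 measured members: its mRNA was 3.94-fold lower in REST than in CONT at its brightest probe and was lower in all 6 cows. The mRNAs of SREBF1, SREBF2, SCAP and MBTPS2 did not pass the test at any probe. MBTPS1 did not pass at its brightest probe. A faint probe of MBTPS1, near background, did pass, but it entered the test only through REST, where it was higher. Its call was lost under 12 alternatives of the processing. Among genes that SREBPs are known to activate, 18 of 19 tested genes of the sterol list, mainly enzymes of cholesterol synthesis, fell (94.7%), where 9.27% of all tested genes were called lower.

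Values are log2 signals relative to the 75th percentile of the same array, so that 0 is the signal of that percentile and a change of -1 is a halving. Levels of different probes are not compared, since probes differ in how well they bind. A probe was called when the adjusted p of limma, fitted over all tested probes with the cow as a block, was under 0.1. The reference probe of a gene is its tested probe with the highest mean signal. In a piece of tissue, fewer cells of a type and less RNA per cell cannot be told apart, and this holds for every change below. Arrays of slide 3, which held cows 5 and 6, were dimmer than those of slides 1 and 2, with 41.9 to 48.0% of probes well above background against 61.8 to 67.9%. Each cow had both of its arrays on a single slide.

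Of all 19403 probes tested, 3104 were called (16.0%), of which 1703 were lower (8.78%) and 1401 higher (7.22%) in REST. Of the 11 tested member probes, 3 were called, which were both probes of INSIG1 and the fainter probe of MBTPS1. The filter on low signals let the fainter probes of INSIG1 and MBTPS1 in only through the group where they were higher, which favors a difference, so their values are given as a description. Of the 9 member probes that were well above background on all 12 arrays, 1 was called, the reference probe of INSIG1. At the reference probes, 1 of 6 members was called, where 16.2% of the 7930 tested genes were. Without the block for cow, 1 of the 11 member probes was called, the reference probe of INSIG1, where 4.32% of all probes were (2.73% lower and 1.59% higher) and 4.40% of all genes at the reference probe (2.80% lower and 1.60% higher).

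INSIG1 encodes the protein that binds SCAP and retains it in the endoplasmic reticulum. At its reference probe (A_73_117398, NM_001077909) the log2 signal in CONT had a lowest value of 3.35, a median of 3.98 and a highest of 5.11. In REST the lowest value was 1.27, the median 1.89 and the highest 3.13. The ranges therefore did not overlap, and the highest restricted cow lay below the lowest control value. Such a gap with REST below CONT was present at the reference probes of 132 of the 7930 genes (1.66%).

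The mean log2 signal of INSIG1 went from 4.08 ± 0.67 (SD, n = 6) to 2.11 ± 0.70 (SD, n = 6). The change was -1.98 on the log2 scale (SE 0.27, 95% confidence interval -2.59 to -1.36), with an adjusted p of 0.00774 in limma. This was the 7th lowest change among the 7930 genes tested. A fall in all 6 cows was present in 10.9% of genes and a rise in all 6 in 7.45%. INSIG1 fell in all 6, but by unequal amounts: cow 4 changed by -3.24, cow 1 by -2.61, cow 6 by -1.98, cow 3 by -1.74, cow 2 by -1.47 and cow 5 by -0.82. By slide, the mean change was -2.04, -2.49 and -1.40 for slides 1, 2 and 3. Without slide 3 it was -2.26 (limma adjusted p 0.0119).

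The second INSIG1 probe (A_73_P429676) was much fainter. Its log2 signal in CONT ran from -3.76 through a median of -2.07 to -0.55, and in REST from -4.48 through -3.85 to -2.12, so the ranges overlapped. All 6 CONT arrays but no more than 2 of the 6 REST arrays showed it well above background, so it passed the filter through CONT, where it was higher, and the REST level is poorly measured. The change was -1.50 (SE 0.20, limma adjusted p 0.0073), with lower values in 6 of 6 cows. The call was lost without the block for cow (adjusted p 0.145), and with the normexp background correction the change was -0.48, still called.

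**Figure D1:**
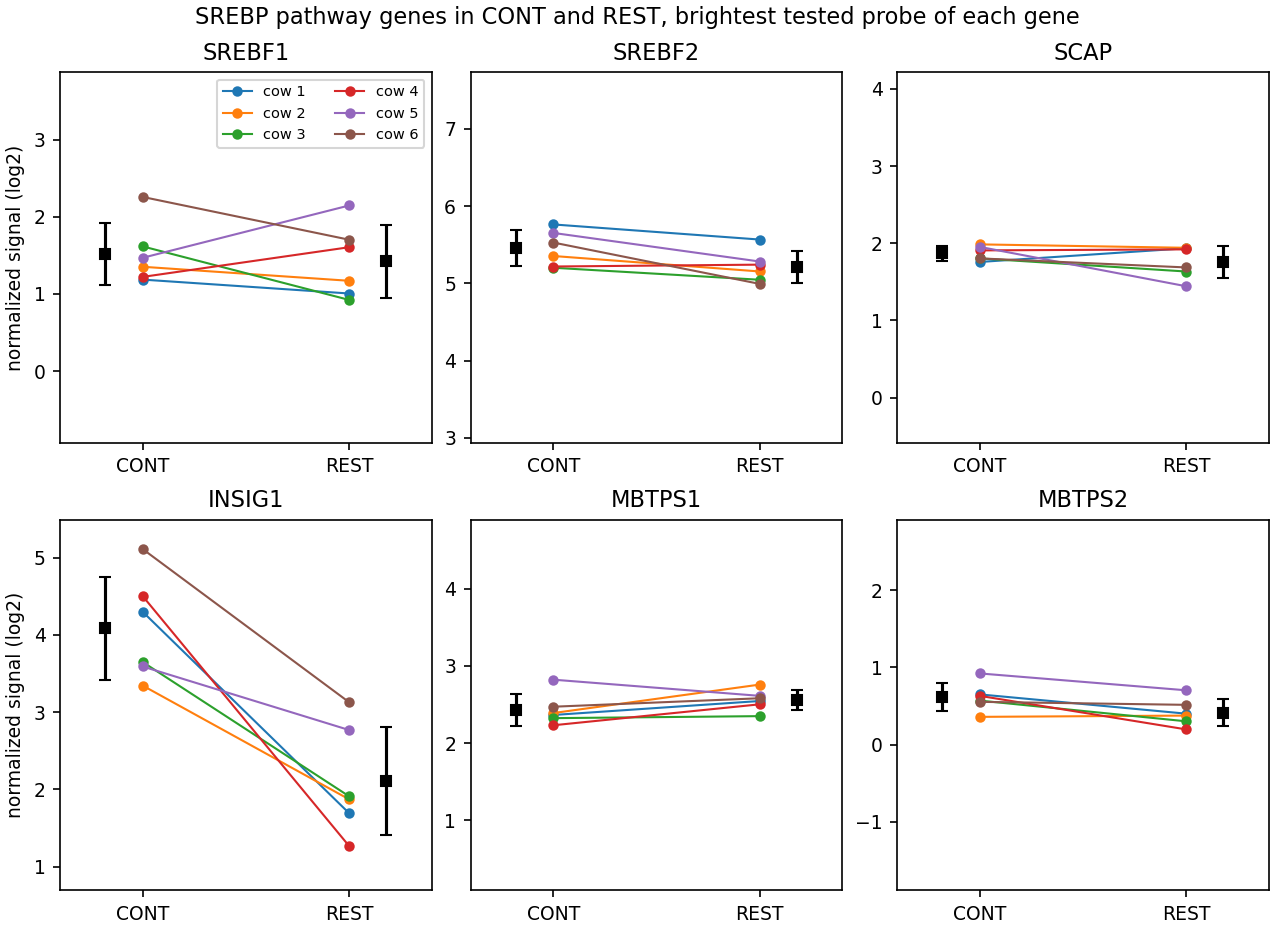
Log2 signal relative to the 75th percentile of the array at the reference probe of each of the 6 measured genes, in CONT and REST, with 1 line per cow (6 cows) and squares with bars for the group mean ± SD. Every panel spans the same number of log2 units, levels are not comparable between panels, and INSIG1 is the panel in which all 6 lines fall and the groups do not overlap.

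SREBF1 encodes the precursor of SREBP-1, the form best known for activating fatty acid synthesis. At its reference probe (A_73_105306, NM_001113302) CONT ran from 1.19 through a median of 1.41 to 2.26 and REST from 0.92 through 1.39 to 2.15. The groups overlapped almost entirely. The change was -0.09 (SE 0.18, 95% confidence interval -0.49 to 0.31, limma adjusted p 0.771), and the cows moved both ways, 4 lower and 2 higher, from -0.69 in cow 3 to 0.68 in cow 5. Without cow 5 the mean change was -0.24 and without cow 3 it was 0.03. At the second probe (A_73_P327441) the change was 0.00 (SE 0.20, 95% confidence interval -0.45 to 0.45, adjusted p 0.994), with 3 cows lower and 3 higher. Its mean change was -0.14 without cow 4 and 0.17 without cow 6. The pair of probes had the same sign in 5 of 6 cows. Neither interval included a halving of the signal.

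SREBF2 encodes the precursor of SREBP-2, the form best known for activating cholesterol synthesis. At its reference probe (A_73_P288011, NM_001205600) CONT ran from 5.20 through a median of 5.44 to 5.76 and REST from 4.99 through 5.20 to 5.57. The ranges overlapped, although 5 of 6 cows were lower in REST. The change was -0.24 (SE 0.09, 95% confidence interval -0.44 to -0.03) and the limma adjusted p was 0.130, so the probe was not called. The fall was not even across slides, with means of -0.20, -0.07 and -0.45 for slides 1, 2 and 3, and without slide 3 the change was -0.13 (adjusted p 0.396).

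The second tested SREBF2 probe (A_73_P148781) ran from 2.80 through 2.88 to 3.25 in CONT and from 2.37 through 2.56 to 2.88 in REST. Its change was -0.37 (SE 0.13, 95% confidence interval -0.67 to -0.08, limma adjusted p 0.108), lower in 4 of 6 cows. With the cow as a random block this probe was called (adjusted p 0.0468). By slide its mean was 0.05, -0.47 and -0.71 for slides 1, 2 and 3, and without slide 3 the change was -0.21 (limma adjusted p 0.333). Both tested probes of SREBF2 had a negative mean, with the same sign in 3 of 6 cows. A further 2 probes of SREBF2 were each well above background on 6 of 12 arrays and were not tested. Over the cows their changes ran from -1.14 to 0.03 (A_73_P371690, lower in 5 of 6) and from -1.45 to 0.33 (A_73_P091831, lower in 3 of 6).

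SCAP encodes the escort protein that senses sterols. Its reference probe (A_73_106918, NM_001101889) ran from 1.76 through a median of 1.86 to 1.99 in CONT and from 1.44 through 1.80 to 1.94 in REST. The groups overlapped, and the change was -0.11 (SE 0.10, 95% confidence interval -0.33 to 0.11, limma adjusted p 0.507), lower in 4 of 6 cows. By slide the mean was 0.07, -0.08 and -0.31, and the change was -0.01 without slide 3 and -0.03 without cow 5. The second tested probe (A_73_P270221) changed by -0.05 (SE 0.17, adjusted p 0.861), and by -0.23 without cow 1 and 0.07 without cow 3. An untested probe (A_73_P275081), well above background on 4 of 12 arrays, had a mean change of 0.13.

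MBTPS1 encodes the site-1 protease, which makes the first cut in the SREBP precursor. At its reference probe (A_73_108345, NM_001025330) CONT ran from 2.23 through a median of 2.38 to 2.82 and REST from 2.35 through 2.56 to 2.76. The change was 0.12 (SE 0.09, 95% confidence interval -0.09 to 0.33, limma adjusted p 0.414), higher in 5 of 6 cows, and the probe was not called. By slide the mean was 0.27, 0.15 and -0.05, and the change was 0.08 without cow 2 and 0.19 without cow 5.

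The fainter probe of MBTPS1 (A_73_P289321) ran from -4.06 through -2.55 to -2.03 in CONT and from -2.44 through -2.0 to -1.78 in REST. Its signal cleared the background on 5 of 6 arrays in CONT and on 6 of 6 in REST, and it passed the filter through REST, where it was higher. The values were higher in 6 of 6 cows, by 0.69 on average (SE 0.22, 95% confidence interval 0.19 to 1.2, limma adjusted p 0.0886). The CONT array of cow 6, on the dim slide 3, was the one not well above background, so that the difference of 2.03 in this cow rests on a value at background. The smallest difference was 0.07, in cow 5. Without cow 6 the mean difference was 0.43 and still called. The call was lost without the block for cow (adjusted p 0.217), after quantile normalization (adjusted p 0.124), and with the normexp correction, where the difference was 0.13 (adjusted p 0.289). It was lost too with the slide as a block (adjusted p 0.160), with no filter on dim probes (0.205) and without moderation (0.217). It was also lost when cow 1, 2, 3 or 4 was left out, with adjusted p of 0.166, 0.158, 0.115 and 0.184.

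MBTPS2 encodes the site-2 protease, which makes the cut that frees the active part of SREBP within the membrane. Its single probe (A_73_111457, NM_001075981) ran from 0.36 through a median of 0.60 to 0.92 in CONT and from 0.20 through 0.39 to 0.70 in REST. The ranges overlapped, and the change of -0.20 (SE 0.09, 95% confidence interval -0.39 to -0.01, limma adjusted p 0.171) was not called, although 5 of 6 cows were lower.

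**Figure D2:**
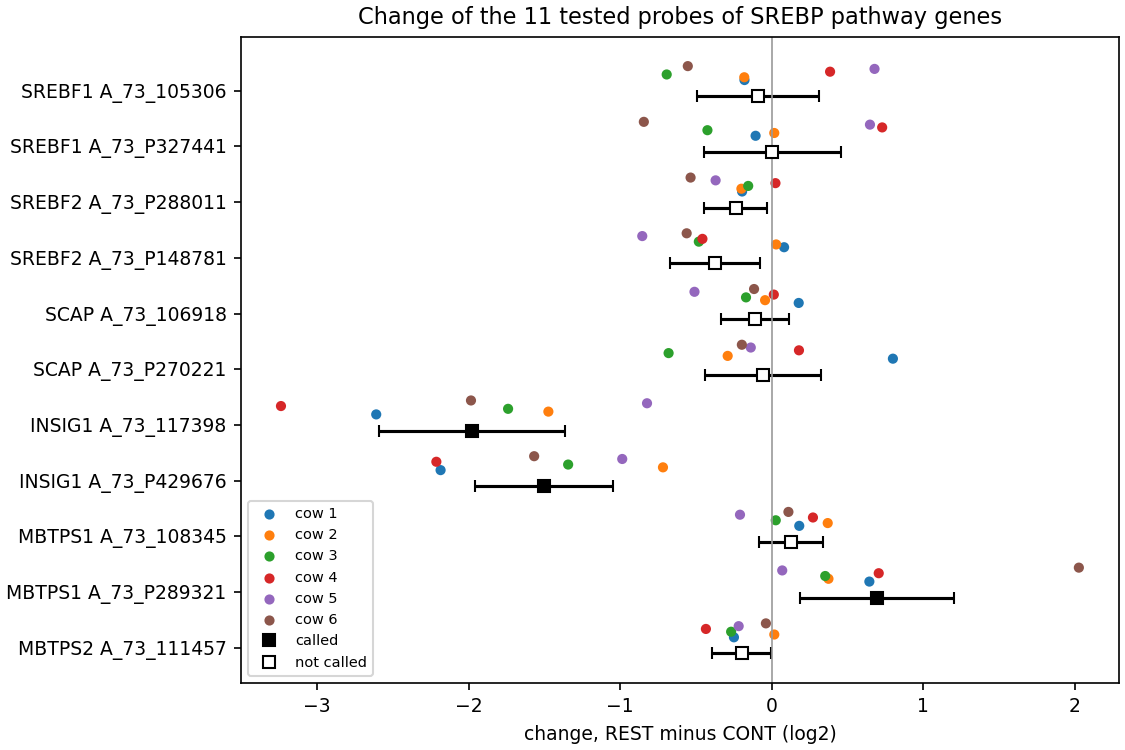
Change from CONT to REST (log2) at the 11 tested probes of the 6 measured genes. Colored points are the 6 cows, squares with bars are the mean and its 95% confidence interval, and filled squares are the 3 probes called by limma: the INSIG1 probes lie at -1.98 and -1.50, and every other mean lies between -0.37 and 0.69.

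Differences in change between members were tested over the cows for 3 pairs with exact two-sided sign-flip permutation tests, in which 6 cows allow no p below 0.03125. INSIG1 changed more than SCAP, the protein it retains, in 6 of 6 cows. The mean difference was -1.87 on the log2 scale (SD 1.04, n = 6, 95% confidence interval -2.97 to -0.77, exact permutation p 0.03125, adjusted over the 3 pairs 0.0469). The proteases also differed: the change of MBTPS1 was above that of MBTPS2 in 6 of 6 cows, by 0.32 (SD 0.24, n = 6, 95% confidence interval 0.07 to 0.58, exact permutation p 0.03125, adjusted 0.0469), although neither reference probe was called on its own. The smallest of these differences, in cow 5, was 0.0087, close to 0, and the p rests on its sign. No difference was detected between SREBF1 and SREBF2 (0.15, SD 0.53, n = 6, 95% confidence interval -0.40 to 0.70, exact permutation p 0.594).

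The genes around the members were described through 6 lists with 98 genes in all, counted at the reference probe and set beside the 735 lower (9.27%) and 550 higher (6.94%) of the 7930 tested genes. The median change of all tested genes was -0.01.

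Targets in the sterol list, mainly enzymes of cholesterol synthesis, fell almost throughout. Of 23 genes, 19 were tested, and 18 were called lower and none higher, with a median change of -1.06. The largest fall was in HMGCS1, the enzyme that makes HMG-CoA for the mevalonate pathway, at -2.24 (SE 0.32, limma adjusted p 0.00883). TM7SF2, a sterol reductase, fell by 1.48 (SE 0.11, adjusted p 0.00122). Both were lower in 6 of 6 cows. PMVK, a kinase of the mevalonate pathway, was the tested gene that was not called, with a change of 0.22.

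Of 18 fatty acid and triglyceride targets, 11 were tested and 6 were called lower and none higher, with a median of -0.39. FASN, DGAT2, ELOVL6, FADS1, ME1, PNPLA3 and THRSP had no tested probe, so the counts and the median leave them out. LPIN1, a phosphatidate phosphatase of triglyceride synthesis, fell by 1.88 (SE 0.20, limma adjusted p 0.00463). ACSS2, which activates acetate, fell by 1.60 (SE 0.17, adjusted p 0.00460), and LPL, the lipase that releases fatty acids from blood lipoproteins, fell by 1.1 (SE 0.16, adjusted p 0.00883). All 3 were lower in 6 of 6 cows. ACLY, ELOVL5, GPAM, AGPAT2 and ACSL3 were not called, with changes from -0.37 for ACSL3 to 0.36 for AGPAT2.

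Genes for the transport of SCAP and SREBP from the endoplasmic reticulum to the Golgi, mainly the COPII coat, did not pass the test. Of 13 genes, 9 were tested and limma called 0, with 0 at an unadjusted p under 0.05 and 0 in the test without moderation. The changes lay between -0.20 and 0.09, with a median of -0.15.

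Regulators of the turnover and retention of INSIG, SCAP and SREBP, such as the ubiquitin ligases of endoplasmic reticulum-associated degradation, were tested for 16 of 18 genes. Of these, 2 were called lower and none higher, a share of 12.5%, with a median of -0.06. They were TMEM97, a sterol-responsive membrane protein (-0.57, SE 0.11, limma adjusted p 0.0208), and SPRING1, a protein required for the activity of the site-1 protease (-0.26, SE 0.08, adjusted p 0.0946). Neither was called without the block for cow, with adjusted p of 0.335 and 0.196. Under quantile normalization or median shift, and without cow 1, 2, 4 or 6, the list kept 1 called gene.

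Coactivators and upstream regulators were tested for 15 of 18 genes, with 1 called lower and 1 higher and a median of 0.05. PRKAA2, a catalytic subunit of the AMP-activated kinase, fell by 0.95 (SE 0.14, limma adjusted p 0.0104) in 6 of 6 cows. NR1H3, the oxysterol receptor that activates SREBF1 transcription, rose by 0.40 (SE 0.10, adjusted p 0.0484) in 5 of 6 cows. The call of NR1H3 was lost with no filter on dim probes, without moderation and without cow 1, 2 or 4.

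Of 8 other substrates of the proteases, 4 were tested and 1 was called lower. This was ATF6B, a stress sensor of the endoplasmic reticulum, at -0.30 (SE 0.10, limma adjusted p 0.0980, without the block for cow 0.582). This call was also lost with any cow left out, with the cow as a random block or the slide as a block, without moderation or the filter, and under quantile normalization, median shift and both normexp corrections. The called shares of the transport, turnover, coactivator and protease substrate lists were 0, 12.5, 13.3 and 25%, of few genes each, beside 16.2% of all tested genes.

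**Figure D3:**
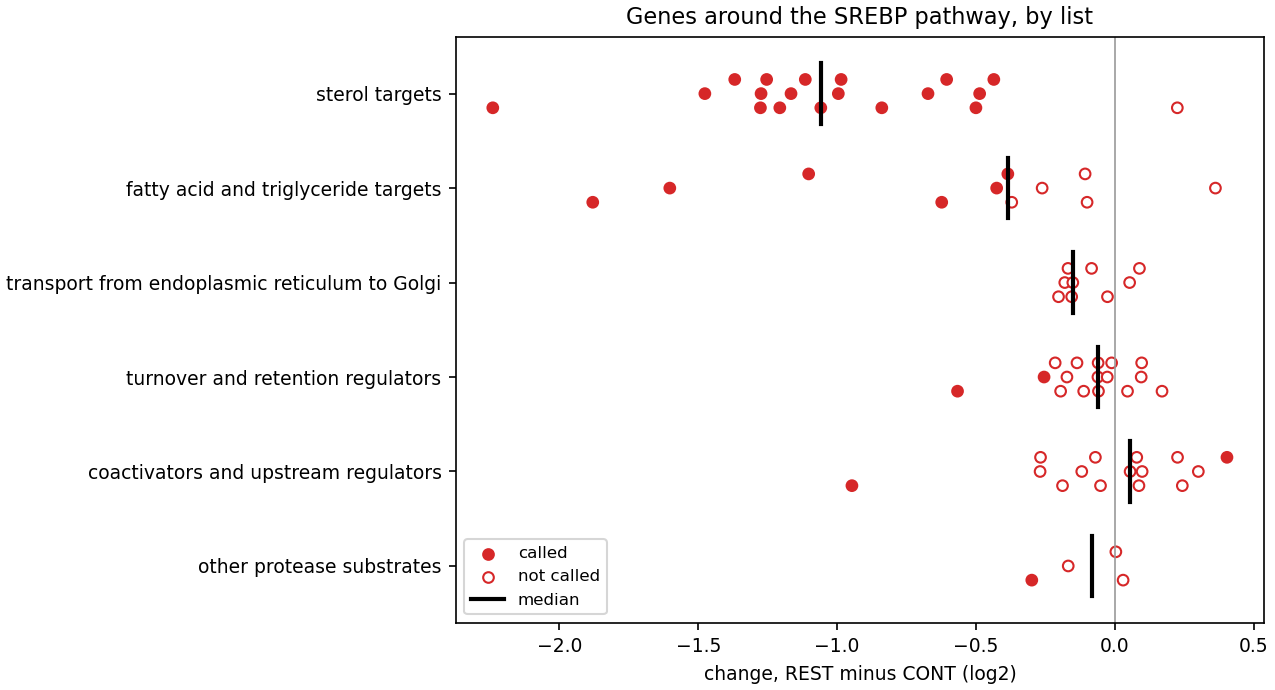
Change from CONT to REST (log2) of each tested gene in the 6 pathway lists, at its reference probe. Filled points were called by limma, open points were not, and the bar is the median of the list: the sterol list has 18 filled points of 19 and a median of -1.06, and the transport list has none.

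Within each cow, the change of INSIG1 was below the median change of the sterol list in 6 of 6 cows. The changes of SREBF1, SREBF2, SCAP, MBTPS1 and MBTPS2 were above that median in 6 of 6 cows. Against the median of the fatty acid list, INSIG1 was again lower in 6 of 6 cows and MBTPS1 and MBTPS2 were higher in 6 of 6, whereas SREBF1 and SREBF2 were each higher in 4 cows and lower in 2, and SCAP was higher in 5 and lower in 1.

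Whether cows with a larger change of a member also had a larger change of a list of SREBP targets was examined with 2 relations over the 6 cows. INSIG1 and the median of the sterol list were related (Pearson's r 0.925, exact permutation p 0.0153, adjusted over the 2 relations 0.0306; Spearman's rho 0.886, exact permutation p 0.0333, adjusted 0.0667). Cow 4 had the largest fall in both measures, -3.24 and -1.49, and cow 5 the smallest, -0.82 and -0.60. With these 2 cows left out, r was 0.627 over 4 cows, so the relation rests in part on them. For SREBF1 and the median of the fatty acid list no relation was detected (r 0.182, exact permutation p 0.735; rho 0.0857, exact permutation p 0.919). Without cows 4 and 5 that r was -0.834 over 4 cows. The points of a relation share the scaling of the same arrays, and each slide held 2 cows, too few for values within slides. INSIG1 is itself a target gene of SREBP, so its relation cannot tell a regulator from a further target. The lists were also chosen with earlier results of these data known.

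**Figure D4:**
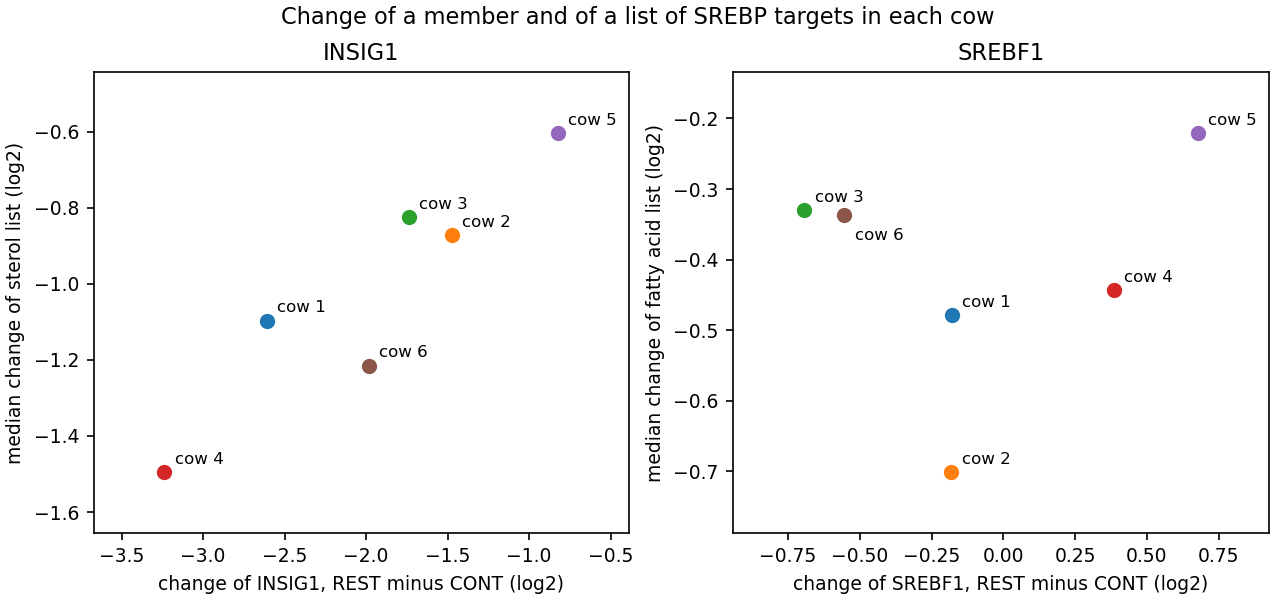
Left, change of INSIG1 against the median change of the sterol list in each of the 6 cows. Right, change of SREBF1 against the median change of the fatty acid list, all in log2 units: the left points run from cow 5 (-0.82, -0.60) to cow 4 (-3.24, -1.49), and the right points lie on both sides of 0 for SREBF1 and below 0 for the list.

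The reference probes most like INSIG1 over the 12 arrays were those of CYB5B (Pearson's r 0.971) and MVD, an enzyme of the mevalonate pathway (0.964). Their changes were -0.98 and -1.21, each lower in 6 of 6 cows. These correlations are given as a description, and they include the difference between CONT and REST.

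Summed signals of several cell type marker lists moved with the groups. The summed signal of the luminal epithelial markers with a probe, 7 of 9, all tested, ranged from 2047 to 2758 times the 75th percentile signal in CONT and from 1695 to 2256 in REST, and was lower in 6 of 6 cows, by a median of -0.21 on the log2 scale. Of these markers CSN3 was called lower and KRT8 and KRT18 higher, so these keratins moved against the sum. All sums add signals on the linear scale, so the brightest markers of a list weigh most. The endothelial sum, over 5 of 5 markers, ranged from 8.43 to 11.4 in CONT and from 10.2 to 12.5 in REST and was higher in 6 of 6 cows, by a median of 0.37, with VWF called higher. The adipocyte sum, over 3 of 5 markers of which none was tested and PLIN1 was above background on no array, ranged from 0.132 to 0.505 in CONT and from 0.120 to 0.316 in REST, and was lower in 6 of 6 cows, by a median of -0.19. The myoepithelial sum, over 6 of 6 markers, ranged from 96.2 to 189 in CONT and from 87.2 to 174 in REST and was lower in 5 of 6 cows (median -0.21), with ACTA2 and CNN1 called lower. The skeletal muscle sum, over 3 of 3 markers of which MYH1 was above background on no array, ranged from 2.11 to 3.75 and from 1.76 to 2.96 and was lower in 5 of 6 cows (median -0.30), with CKM called lower. The erythrocyte sum, over 3 of 3 markers of which ALAS2 was above background on no array, ranged from 13.7 to 20.1 and from 10.3 to 20.4 and was lower in 5 of 6 cows (median -0.38). The fibroblast and leukocyte sums were each higher in 3 of 6 cows, and CD3E of the leukocyte list was called higher. The part of these shifts in the change of INSIG1 and of the target lists was not tested.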

How the data were processed

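Total RNA (50 ng) of 12 mammary biopsies was labeled with Cy3 and hybridized to 3 slides of 4 arrays. Per the file headers, the authors extracted spot intensities with Agilent Feature Extraction (version 11 in the submitters' processing notes). The deposited scanner files hold background-subtracted processed intensities on a linear scale, and the deposited series table holds the same intensities, without scaling between arrays. Arrays hold no counts, and their number limits the precision.

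Here, processed intensities were log2-transformed, flagged outlier spots were left out, repeat spots were averaged, and each array was shifted by the 75th percentile of its non-control spots. Of 43653 probes, 27131 received a symbol (12787 genes) through RefSeq accessions. A probe was tested when well above background on every array of CONT or of REST. Groups were compared with limma 3.58.1 in R 4.3.3 (lmFit and eBayes, cow as a fixed block, two-sided), with Benjamini-Hochberg adjustment over all 19403 tested probes and a threshold of 0.1. The labels name the animal of each biopsy, which gives the pairing, and the deviations of the arrays from their group means correlated at 0.355 to 0.574 within a cow and at -0.326 to 0.135 between cows. The script was tested on simulated data. Python 3.11.15 and scipy 1.17.1 gave the exact permutation tests.

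The members and gene lists were chosen with earlier results of these data known. All probes of the members are given. Of each list, at most 3 called genes with the largest changes were named, and for INSIG1 the 3 genes with the highest correlation over the arrays. Of the genes so selected, 2 are not reported here by value; counts and medians include them. The genes of the fatty acid list named as not called and PMVK were chosen after their values were seen. Alternatives were other scalings, 2 normexp corrections (offset 50, on median signals, since the files hold no mean signal), other filters, blocks and moderation, and each cow left out. A planned comparison of INSIG1 with INSIG2 was not run. The array grid and the gene table refer to different assemblies, so no coordinates are given.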

Additional observations from a re-analysis of the deposited data

Results flagged for a closer look

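At the second probe of SREBF1 (A_73_P327441), cow 6 stood apart from the other CONT arrays: its log2 signal was 1.05, the next highest was 0.14 and the lowest was -0.38, so that the gap made up a share of 0.636 of the range of the group. The array lay on the dimmer slide 3. Of 28 groups of 6 examined in this way, 1 stood out, where chance gives about 1 in 20. The part of the slide in this value was not tested.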

How the results depend on the processing

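Over the alternatives, 376 values kept their direction and side of the threshold or moved little, 51 moved further, 14 lost a call and 7 gained one, and no called change of a member changed sign. The difference between SREBF1 and SREBF2, which was not detected, ran from -0.03 to 0.28 with a cow left out. The fall of INSIG1 at its reference probe was called under every alternative tested (limma adjusted p 0.00101 to 0.0664), and each cow left out in turn gave -2.21 to -1.73. Without the pairing, that is with no block for cow, its adjusted p was 0.0122, and 15 of 19 sterol genes and 4 of 11 fatty acid genes were called. Over all probes, 3104 calls became 838 without the block for cow, 1900 with the slide as block, 386 with no filter on dim probes, 1860 without moderation, 721 without moderation or block, and 1056 to 3284 with a cow left out (1534 without cow 1, 1056 without cow 2, 1198 without cow 4). The reference probe of SREBF2 was called with trend and robust moderation (change -0.24, adjusted p 0.0927) and changed by -0.45 within slide 3. Its second probe was called under 6 alternatives (lowest adjusted p 0.0468, with cow as a random block). The mean over both MBTPS1 probes was 0.41. Called genes of the fatty acid list numbered 3 with no filter and 2 without moderation or block (5 to 7 with a cow left out), and those of the transport list 0 to 1 with a cow left out (1 without cow 5). The turnover list had 1 called gene under quantile normalization, median shift, normexp with quantile normalization, no moderation and slide 3 left out (an alternative chosen after seeing the data), 0 with no filter, no block, slide as block and neither moderation nor block, and 1 to 2 with a cow left out (1 without cow 1, 2, 4 or 6). Coactivators had 1 with no filter or no moderation and 1 to 4 with a cow left out (1 without cow 1, 2 or 4, and 4 without cow 5). The protease substrates had 0 under 10 alternatives and with any cow left out (0 to 0), and 2 when any probe counted. Without cows 4 and 5, r was 0.627 for INSIG1 and turned from 0.182 to -0.834 for SREBF1. No scaling moved the median of all genes by more than 0.1. The causes were not tested. Probes of INSIG1 and MBTPS1 near background limit what their sizes can show.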
